A study of Homo sapiens with 6 samples.

Results

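N-linked glycosylation attaches a preassembled sugar chain to asparagine residues of proteins entering the endoplasmic reticulum (ER). The 37 genes described here encode enzymes of that route: 9 subunits of the oligosaccharyltransferase (OST), which transfers the chain, 14 enzymes that build the chain on its lipid carrier, 9 genes of dolichol synthesis and dolichol-phosphate mannose, the trimming enzyme glucosidase I, and 4 enzymes of the hexosamine pathway. They were chosen by name, all 37 were found among the 57820 annotated genes of the deposited table, and all 37 were among the 14889 genes tested, those whose normalised counts averaged 10 or more. ALG9 stands on 2 rows, of which 1 was listed at 0 and left aside.

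The chain is built on dolichol, a long isoprenoid lipid of the ER membrane. Its first sugars are added on the cytosolic face and the remaining mannoses and glucoses on the lumenal face, from donors that are themselves carried by dolichol phosphate. The hexosamine pathway makes UDP-N-acetylglucosamine (UDP-GlcNAc), the sugar nucleotide with which each chain starts, from fructose 6-phosphate. Glycans guide folding and disposal of ER proteins, and genes of the hexosamine pathway, GFPT1 among them, are known targets of spliced XBP1, which drives part of the response to misfolded ER proteins.

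The samples were U2OS cells, an established human osteosarcoma line, kept for 4 h either with 0.05% DMSO or with 5 µM NMS-873 dissolved in DMSO. NMS-873 inhibits VCP (p97), an ATPase that extracts ubiquitylated proteins from the ER membrane among other places. There were 3 libraries of polyadenylated RNA per treatment, and each held 21132311 to 22488952 reads in genes. The labels do not say whether libraries of 1 treatment came from separate cultures, so the spread between these libraries may be technical. The limma p-values rest on that spread, taken for each gene mostly from genes of similar level. As markers of the line, SPARC (442 FPKM with DMSO), VIM (439) and COL1A1 (225) were high, while TWIST1 was listed at 0 and COL1A2 stood at 0.0450 FPKM; CD3E and ALB were listed at 0. A normalised count is reads divided by the size factor of the library, here set by spike-in RNA. FPKM relates reads to gene length, and the deposited FPKM carry the same size factors. Within a gene they are proportional to the normalised counts. NMS-873 replicate 1 stood apart: its reads differed from those of NMS-873 replicates 2 and 3 by 7.43 and 7.90 (chi-square per degree of freedom), against 1.79 between these 2. DMSO replicate 3 differed from DMSO replicates 1 and 2 by 3.52 and 3.57, against 1.52.

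With NMS-873, transcripts of 3 of the 4 hexosamine enzymes (all but GNPNAT1) and of 5 of the 9 OST members were higher, and 9 of the 14 assembly enzymes were lower, 5 of them with gene-based scaling. In limma, 12 of the 37 members rose and 12 fell at an adjusted p under 0.05, against 14.9% and 33.0% of all genes tested (24 called in either direction, against 47.9%). The lower count is therefore close to the background, and the higher count above it. Of the members, 6 rose by at least 0.4 on the log2 scale (GFPT1, UAP1, ALG12, NUS1, ALG2 and PGM3), where 6.35% of all genes did, and 1 fell by as much (DOLK), where 13.7% did. MAGT1, at 0.40 after rounding, lay just under this bound. NMS-873 libraries lay wholly above the DMSO libraries for 14 members and wholly below for 13, against 16.4% and 37.2% of all genes. The median log2 fold change of the members was -0.01 against -0.10 for all genes tested. The authors' deposited table calls 12 members higher and 9 lower, where it calls 11.2% and 22.0% of its genes, and 20 members were called there and here with the same sign.

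**Figure D1:**
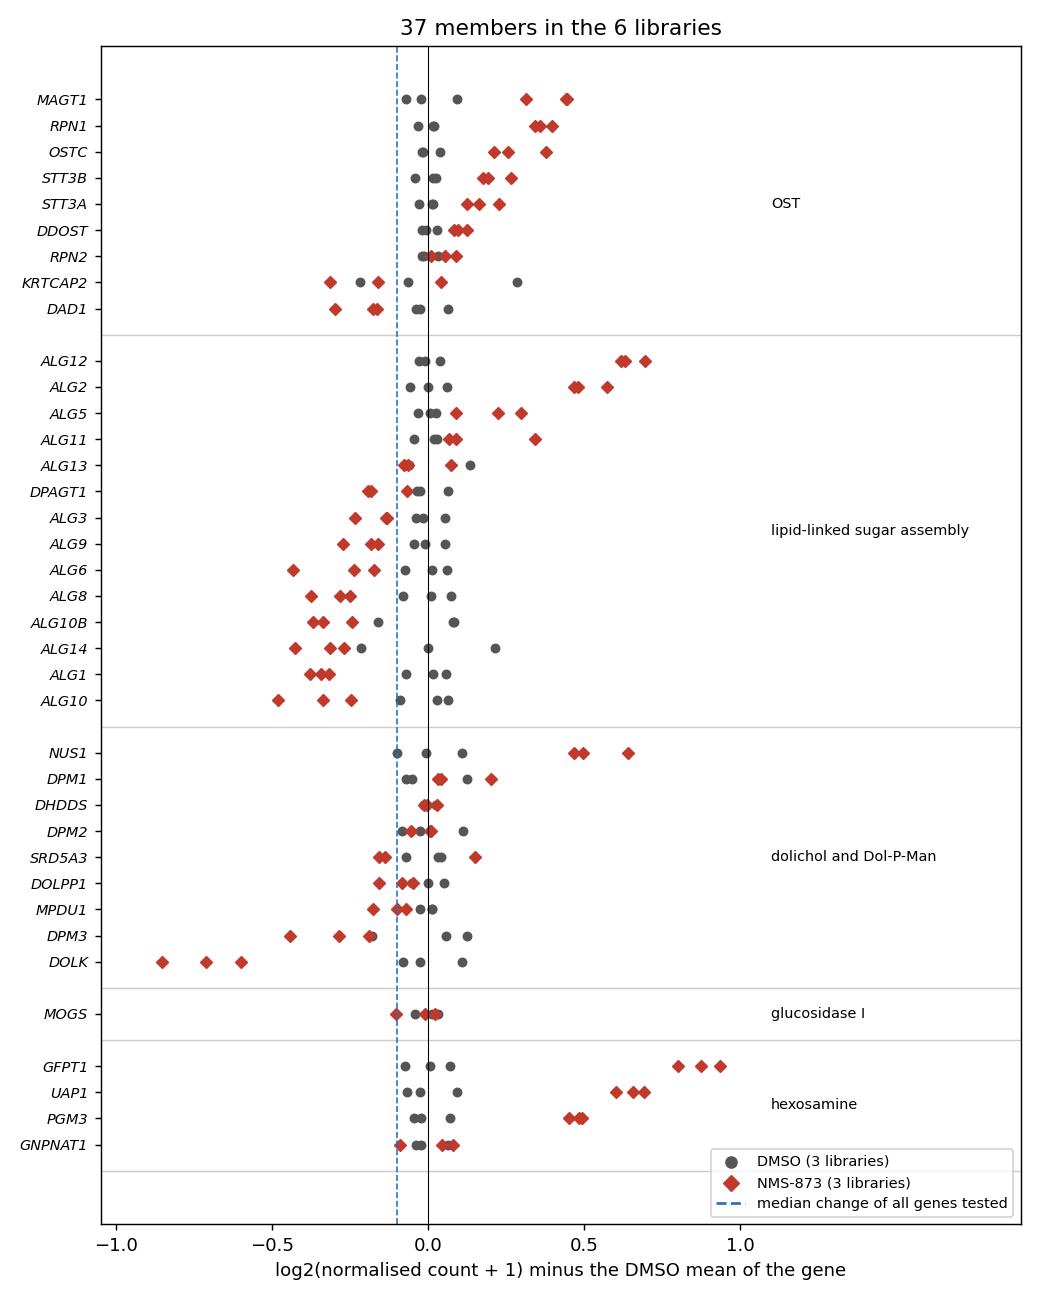
Each point is 1 library: the x axis gives log2(normalised count + 1) minus the DMSO mean of the gene, the y axis the 37 members by group. The NMS-873 points of GFPT1, UAP1 and PGM3 lie to the right of all DMSO points, those of DOLK to the left, and the dashed line marks the median change of all genes tested, -0.10.

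The direction of small changes depends on the scale. Scaled to genes in place of spike-in RNA, the median gene moves from -0.10 to 0.00, and 17 members rose and 7 fell, against 25.3% and 20.9% of all genes. TMM factors gave 17 and 6 members (26.3% and 19.8% of all genes), equal totals 13 and 13 (16.6% and 35.7%), and quantile normalisation 13 and 7 (20.7% and 27.6%). Under each of 5 scalings (as deposited, equal totals, quantile normalisation, gene-based factors and TMM factors) the same 12 members rose, and 6 fell: DAD1, ALG1, ALG8, ALG10, ALG14 and DOLK. The share of all genes that held under all 5 was not counted. Without NMS-873 replicate 1, 12 members rose and 11 fell, against 16.2% and 28.1% of all genes; ALG3 was the call lost.

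Of the 4 hexosamine enzymes 3 rose and none fell. Their median log2 fold change was 0.56 against -0.10 for all genes tested, of which 14.9% rose and 33.0% fell. GFPT1 (chromosome 2, 69546905 to 69614382, hg19) encodes the amidotransferase that makes glucosamine 6-phosphate and sets the rate of the pathway. Its level was 3575, 3384 and 3740 normalised counts in DMSO replicates 1 to 3 and 6212, 6535 and 6816 in NMS-873 replicates 1 to 3. All NMS-873 libraries lay above all DMSO libraries. The difference was 1.83-fold (log2 fold change 0.87, SE 0.0541, limma adjusted p = 8.67e-39), and 2.19% of all genes tested rose further.

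GNPNAT1, which acetylates the glucosamine 6-phosphate that GFPT1 makes, had 3602, 3563 and 3821 normalised counts in the DMSO libraries and 3441, 3776 and 3865 in the NMS-873 libraries. Its groups overlapped, and the log2 fold change was 0.01 (SE 0.0540, limma adjusted p = 0.878). Among the 4 enzymes it is the one that did not pass the test as deposited; with gene-based factors it was at 0.12 (limma adjusted p = 0.00775).

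PGM3 (chromosome 6, 83870869 to 83903655), the mutase that turns N-acetylglucosamine 6-phosphate into the 1-phosphate, went from 844, 778 and 791 normalised counts to 1125, 1133 and 1100. The groups lay apart, with a 1.39-fold rise (log2 fold change 0.48, SE 0.0608, limma adjusted p = 1.72e-12). RWDD2A, on the opposite strand, overlaps PGM3 by 558 bases and went from 65.3 ± 3.69 to 144 ± 11.3 normalised counts (SD, n = 3), 10.9% of the mean count of PGM3 over all libraries. DOPEY1, also on the opposite strand, overlaps PGM3 by 10201 bases at 12.5% of its mean count and was at -0.24 (limma adjusted p = 0.0850). UAP1 (chromosome 1, 162531323 to 162569627), the pyrophosphorylase that completes UDP-GlcNAc, went from 6121, 5953 and 6651 normalised counts to 9470, 9835 and 10073. It rose 1.57-fold without overlap between the groups (log2 fold change 0.65, SE 0.0556, limma adjusted p = 4.30e-24). Per gene length UAP1 was the most abundant of the 4, at 83.9 ± 4.89 FPKM with DMSO and 132 ± 4.08 with NMS-873 (SD, n = 3), and PGM3 the least, at 5.02 ± 0.220 and 6.99 ± 0.105.

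**Figure D2:**
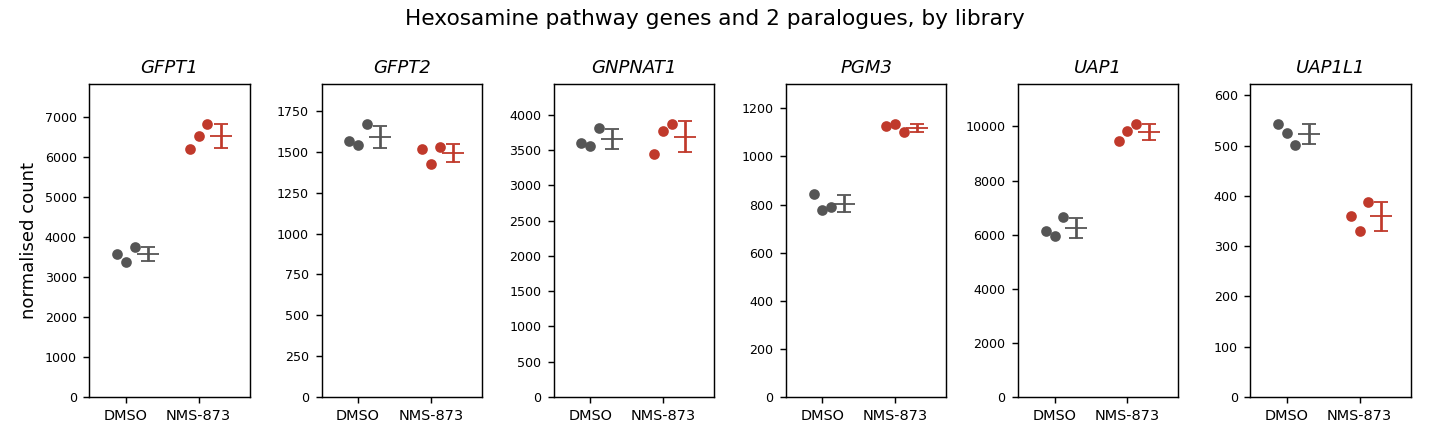
Normalised counts in each of the 6 libraries, with the mean ± SD (n = 3) beside the points, for the 4 hexosamine enzymes and the paralogues GFPT2 and UAP1L1. GFPT1, PGM3 and UAP1 are higher with NMS-873, GNPNAT1 overlaps, and UAP1L1 is lower.

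Neither of 2 paralogues rose. GFPT2, another amidotransferase gene, had a mean normalised count of 1593 ± 67.2 in DMSO libraries and 1494 ± 56.3 in NMS-873 libraries (SD, n = 3; log2 fold change -0.09, limma adjusted p = 0.170). UAP1L1, a paralogue of UAP1, fell from 523 ± 20.6 to 359 ± 29.0 (log2 fold change -0.54, limma adjusted p = 4.52e-11). Within each library the ratio of GFPT1 to GFPT2, which no single factor per library can move, lay between 1.13 and 1.19 with DMSO and was 2.03, 2.19 and 2.15 with NMS-873 on the log2 scale. Per gene length GFPT1 stood at 1.21 times GFPT2 with DMSO and at 2.36 times with NMS-873. The ratio of GFPT1 to UAP1 also rose, by 0.22 on the log2 scale, from -0.78, -0.81 and -0.83 to -0.61, -0.59 and -0.56. With 3 libraries against 3 the exact two-sided permutation test cannot go below p = 0.10, the value of both ratios (0.15 after Benjamini-Hochberg adjustment over 6 ratios).

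OST transfers the finished chain. It exists as 2 complexes that share RPN1, RPN2, DDOST and DAD1: the STT3A complex, docked at the translocon through OSTC and KRTCAP2, which acts during protein entry, and the STT3B complex, with the oxidoreductase MAGT1 or TUSC3, which also reaches sites that were skipped. Of the 9 OST members 5 rose and 1 fell, against 14.9% and 33.0% of all genes, and their median log2 fold change was 0.17 against -0.10. Gene-based factors gave 7 higher and 1 lower, with RPN2 and DDOST added, against 25.3% and 20.9%.

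Both catalytic subunits rose slightly. STT3A went from 4859, 4714 and 4855 normalised counts to 5629, 5239 and 5389 (1.13-fold, log2 fold change 0.17, SE 0.0539, limma adjusted p = 0.00491). STT3B went from 6621, 6324 and 6577 to 7432, 7354 and 7816 (log2 fold change 0.21, SE 0.0548, limma adjusted p = 5.76e-04). In neither gene did the groups overlap. The log2 ratio of STT3A to STT3B was -0.45, -0.42 and -0.44 with DMSO and -0.40, -0.49 and -0.54 with NMS-873, so the groups overlapped (difference -0.04, exact permutation p = 0.40, adjusted 0.48). Per gene length STT3A stood at 0.504 times STT3B with DMSO and at 0.491 times with NMS-873.

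MAGT1 had the largest rise of the OST members, from 3662, 3269 and 3380 normalised counts with DMSO to 4671, 4265 and 4663 with NMS-873 (log2 fold change 0.40, SE 0.0541, limma adjusted p = 2.77e-11). TUSC3, which takes the same place in the STT3B complex, was at 3089 ± 131 and 2871 ± 84.1 (SD, n = 3; log2 fold change -0.11, limma adjusted p = 0.0956). The log2 ratio of MAGT1 to TUSC3 was 0.26, 0.13 and 0.06 with DMSO and 0.74, 0.58 and 0.66 with NMS-873, without overlap (exact permutation p = 0.10, the smallest possible, adjusted 0.15). OSTC rose from 3070, 2958 and 2947 to 3462, 3575 and 3891 normalised counts (log2 fold change 0.28, limma adjusted p = 2.25e-06).

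The shared subunits were uneven. RPN1, a large scaffold subunit, rose from 7448, 7204 and 7458 normalised counts to 9454, 9347 and 9695 (log2 fold change 0.37, SE 0.0555, limma adjusted p = 2.57e-09). Its partner RPN2 had 12319, 12273 and 12723 in the DMSO libraries and 12896, 12518 and 13229 in the NMS-873 libraries, with overlap (log2 fold change 0.05, limma adjusted p = 0.494; with gene-based factors 0.15, limma adjusted p = 4.71e-04). The log2 ratio of RPN1 to RPN2 was -0.73, -0.77 and -0.77 with DMSO and -0.45, -0.42 and -0.45 with NMS-873, a difference of 0.32 without overlap (exact permutation p = 0.10, adjusted 0.15).

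DAD1, a small subunit, was the OST member that fell, from 2184, 2204 and 2346 normalised counts to 1823, 1985 and 2002 (log2 fold change -0.21, limma adjusted p = 5.27e-04). DDOST did not pass, at 8111, 8037 and 8308 with DMSO and 8717, 8632 and 8878 with NMS-873 (log2 fold change 0.10, limma adjusted p = 0.123), though its groups did not overlap and it passed with gene-based factors (0.21, limma adjusted p = 1.04e-05). Of the 3 other OST subunits, none rose and 1 fell, against 14.9% and 33.0% of all genes, so these counts are near the background. The 1 that fell was OST4, a very small subunit, at log2 fold change -0.25 (limma adjusted p = 5.23e-05). With gene-based factors, too, none of the 3 rose and 1 fell, against 25.3% and 20.9% of all genes. As deposited, DAD1 and OST4 were lower while RPN1, MAGT1, OSTC, STT3A and STT3B were higher in the same libraries. The other OST subunits did not pass.

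**Figure D3:**
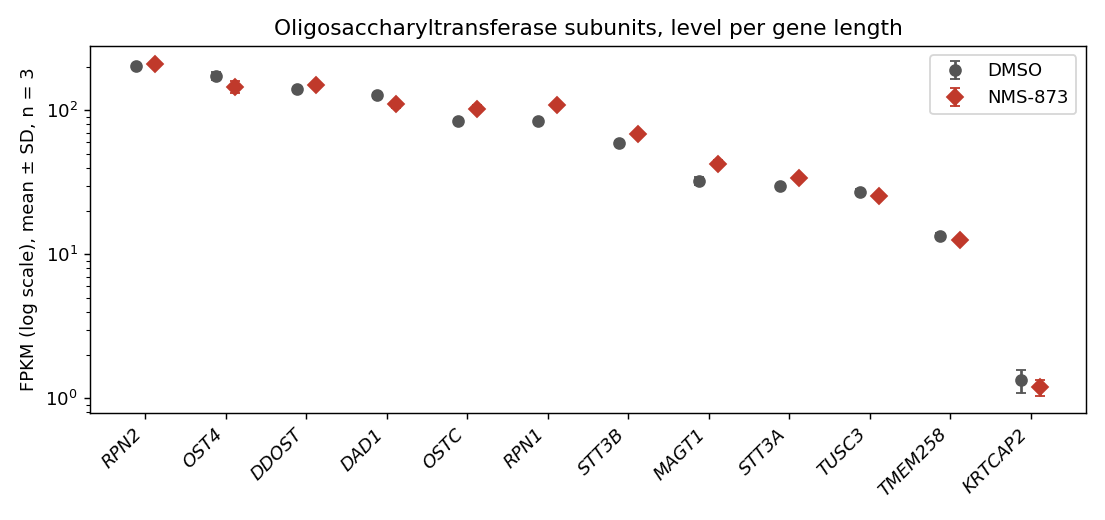
Mean FPKM ± SD (n = 3 libraries, log axis) of 12 OST subunits with DMSO and with NMS-873, ordered by the DMSO level. Levels run from 202 FPKM for RPN2 to 1.33 for KRTCAP2 with DMSO, and the treatments differ by far less than the subunits do.

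Per gene length the subunits covered a wide range with DMSO, from RPN2 at 202 ± 4.02 FPKM through DDOST at 140 ± 2.39, DAD1 at 127 ± 4.99 and STT3A at 30.0 ± 0.513 (SD, n = 3). KRTCAP2 stood far below at 1.33 ± 0.244 FPKM with DMSO and 1.19 ± 0.152 with NMS-873. In the deposited annotation another gene on the same strand, RP11-201K10.3, listed at 0, covers all but its last base, and the sources used here do not say how reads over both were counted. Its level is therefore uncertain, and its log2 fold change was -0.14 (limma adjusted p = 0.366).

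Of the 14 genes of lipid-linked sugar assembly 3 rose and 9 fell, against 14.9% and 33.0% of all genes, and the median log2 fold change was -0.19 against -0.10. Gene-based factors gave 3 higher and 5 lower, against 25.3% and 20.9%, and a median of -0.08 against 0.00. The cytosolic steps were mixed. DPAGT1, which puts the first GlcNAc phosphate on dolichol phosphate, went from 1147, 1220 and 1138 normalised counts to 1114, 1021 and 1029 (log2 fold change -0.15, limma adjusted p = 0.0300). That call was lost with gene-based factors (-0.04, limma adjusted p = 0.531) and without DMSO replicate 1 or 2 or NMS-873 replicate 2 or 3 (limma adjusted p = 0.0588, 0.150, 0.147 and 0.0912). ALG14, the membrane anchor of the enzyme that adds the next GlcNAc, fell from 280, 241 and 325 to 225, 208 and 232 (log2 fold change -0.34, limma adjusted p = 8.62e-04; without DMSO replicate 3, 0.0575), and its catalytic partner ALG13 was at -0.02 (limma adjusted p = 0.827). Both genes are expressed at low levels, at 1.34 ± 0.202 and 2.53 ± 0.208 FPKM with DMSO (SD, n = 3).

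The mannosyltransferases that act next went in opposite directions. ALG1, which adds the first mannose, fell from 845, 774 and 821 normalised counts to 640, 625 and 652 (log2 fold change -0.35, SE 0.0644, limma adjusted p = 1.14e-06). ALG2 (chromosome 9, 101978708 to 101984238), which adds the following mannoses, rose from 993, 916 and 952 to 1329, 1318 and 1418, 1.42-fold (log2 fold change 0.51, SE 0.0589, limma adjusted p = 1.57e-14). In both genes the groups were separate. ALG11, which finishes the cytosolic part, was at 0.17 (limma adjusted p = 0.243). It shares 4974 bases with UTP14C on the same strand, a gene at 641 normalised counts where ALG11 has 120, so its reads are uncertain.

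On the lumenal side ALG12 stood out. ALG12 (chromosome 22, 50293877 to 50312106), a mannosyltransferase that adds a branch mannose, rose from 580, 561 and 554 normalised counts to 916, 867 and 876, 1.57-fold (log2 fold change 0.65, SE 0.0646, limma adjusted p = 8.18e-19). Its groups were far apart. The mannosyltransferases that act before and after it fell: ALG3 from 1075, 1091 and 1147 to 938, 1007 and 1006 (log2 fold change -0.17, limma adjusted p = 0.0149), and ALG9 from 400, 410 and 428 to 369, 341 and 363 (-0.21, limma adjusted p = 0.0190). With gene-based factors neither passed, at -0.06 and -0.10 (limma adjusted p = 0.245 and 0.208). ALG3 also missed the threshold when DMSO replicate 3 or NMS-873 replicate 1 was left out (limma adjusted p = 0.0775 and 0.0642). ALG9 did so when DMSO replicate 3 or NMS-873 replicate 2 was left out (limma adjusted p = 0.0793 and 0.106). ALG3 lies wholly within the annotated span of EIF2B5 on the opposite strand, which has 200% of its mean normalised count and was at -0.20 on the log2 scale. Where their exons overlap, if they do, reads cannot be told apart without strand-specific counting.

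Other members also overlap genes on the opposite strand, and the same limit holds for them. All overlaps given here are between annotated gene spans, introns included, and whether exons are shared was not checked. ALG1 shares 3076 bases with FAM86A (log2 fold change -0.12), ALG5 1446 bases with EXOSC8 (0.15), DPAGT1 6134 bases with C2CD2L (0.60) and MPDU1 1560 bases with FXR2 (0.23). Shorter overlaps are those of ALG1 with NAGPA (440 bases, -0.11), KRTCAP2 with TRIM46 (79 bases, -0.98) and ALG3 with VWA5B2 (29 bases, -0.63). TRIM46 has 44.9% of the mean count of KRTCAP2. Not all such overlaps are listed.

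ALG12 has a neighbour that moved with it. CRELD2, which encodes an ER-resident protein induced by ER stress, lies on the opposite strand, and its annotated span overlaps that of ALG12 by 292 bases. Normalised counts of CRELD2 were 1444 ± 42.8 with DMSO and 4037 ± 222 with NMS-873 (SD, n = 3; log2 fold change 1.48, limma adjusted p = 7.51e-75). The kit was stranded, but whether counting used strand is not given. Reads of CRELD2 and ALG12 from the shared bases may therefore not have been told apart, and their part in the rise was not tested.

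The promoter of ALG12 is shown with those of GFPT1, the member that rose most, and DOLK, the member that fell most. Each is the 250 bases before the RefSeq start in GRCh38.p14, written 5′ to 3′ on the strand of the gene. In ALG12 (chr22:49918439-49918688, minus strand) the capitals mark an ER stress element (ERSE), the binding site of ATF6 and XBP1 with NF-Y, searched on both strands as CCAAT and CCACG with any 9 bases between them. In GFPT1 (chr2:69387228-69387477, minus strand) and DOLK (chr9:128947604-128947853, minus strand) they mark its end CCACG or, on the other strand, CGTGG.
ALG12: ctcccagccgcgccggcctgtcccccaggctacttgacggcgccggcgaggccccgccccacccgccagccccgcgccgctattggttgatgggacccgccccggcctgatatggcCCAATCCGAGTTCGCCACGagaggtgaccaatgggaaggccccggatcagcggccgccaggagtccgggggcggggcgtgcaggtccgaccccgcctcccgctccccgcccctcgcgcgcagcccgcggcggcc
GFPT1: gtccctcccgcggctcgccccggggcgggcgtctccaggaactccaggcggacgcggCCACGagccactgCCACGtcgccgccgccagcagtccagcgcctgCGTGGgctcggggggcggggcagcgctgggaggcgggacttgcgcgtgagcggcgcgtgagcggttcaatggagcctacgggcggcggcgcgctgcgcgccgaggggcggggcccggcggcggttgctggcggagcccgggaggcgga
DOLK: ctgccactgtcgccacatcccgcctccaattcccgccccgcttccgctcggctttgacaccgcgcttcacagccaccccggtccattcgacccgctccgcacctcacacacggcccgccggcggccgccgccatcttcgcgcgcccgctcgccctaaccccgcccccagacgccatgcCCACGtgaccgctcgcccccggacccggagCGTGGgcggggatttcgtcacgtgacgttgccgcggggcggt

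Among the 33 members with a RefSeq promoter entry, ALG12 was the only one with the full ERSE in this window, a match found in 22 of 27305 promoters (0.0806%). Beside ALG12 and CRELD2 these 22 include genes of the ER such as HSPA5, HSP90B1, CALR, CANX and XBP1, and others such as FRG2, FRG2B, FRG2C, NLRP4, ZNF17, TRIM5, GLRA2 and TMEM120A. The RefSeq starts of ALG12 and CRELD2 lie 196 bases apart, and the match in both windows is the same 19 bases, chr22:49918554-49918572. From these starts the genes run away from each other and share no bases. The deposited hg19 spans, used for counting, overlap by 292 bases, so the 2 annotations differ here. They read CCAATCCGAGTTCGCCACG from the side of ALG12 and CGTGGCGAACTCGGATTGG from that of CRELD2.

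The ERSE-II (ATTGG and CCACG with any 1 base between them), the UPRE core (TGACGTGG) and the C/EBP-ATF element (TGATGNAAN), also searched on both strands, matched none of the 33, against 0.0513%, 0.667% and 3.18% of all promoters. The run CCACG alone, which lies within the ERSE and the ERSE-II, was found in 21 of 33 members (63.6%) and in 33.3% of all promoters. Base composition was not matched in this comparison. CCACG stood in 6 of 10 members that rose, 6 of 11 that fell and 9 of 12 that did not pass. A match is a run of letters and not evidence of binding.

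The glucosyltransferases, which cap the chain, moved one way. ALG6, which adds the first glucose, fell from 346, 358 and 326 normalised counts to 304, 254 and 291 (log2 fold change -0.28, limma adjusted p = 0.00261). ALG8, which adds the next, fell from 2175, 1953 and 2079 to 1697, 1592 and 1736 (log2 fold change -0.30, SE 0.0556, limma adjusted p = 7.68e-07). ALG10, which adds the last, fell from 345, 337 and 310 to 278, 236 and 261 (log2 fold change -0.36, limma adjusted p = 1.54e-04).

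ALG10B, a near-identical copy of ALG10, fell from 299, 298 and 252 to 218, 238 and 223 (log2 fold change -0.32, limma adjusted p = 0.00145), and counting may split reads between these copies. The log2 ratio of ALG10 to ALG10B overlapped between the groups (difference -0.04, exact permutation p = 0.90). In all 4 genes the NMS-873 libraries lay wholly below the DMSO libraries, as they did in 37.2% of all genes tested. Their log2 fold changes stayed below the median gene with gene-based factors, at -0.18, -0.20, -0.25 and -0.21 in that order. ALG6 then had a limma adjusted p = 0.0760, and 0.0628 without NMS-873 replicate 2, and ALG10B lost its call with TMM factors and quantile normalisation (limma adjusted p = 0.0545 and 0.0571). ALG5, which makes the glucose donor dolichol-phosphate glucose, rose instead, from 418, 435 and 429 to 499, 455 and 525 (log2 fold change 0.20, limma adjusted p = 0.0140). Its call was lost when DMSO replicate 1 or NMS-873 replicate 3 was left out (limma adjusted p = 0.0645 and 0.0983).

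Of the 9 genes of dolichol and dolichol-phosphate mannose 1 rose, 2 fell and 6 did not pass, no larger shares than the 14.9% and 33.0% of all genes, and the median log2 fold change was -0.05. NUS1 and DHDDS form the cis-prenyltransferase that elongates the dolichol chain. NUS1 (chromosome 6, 117996665 to 118031803) rose from 1273, 1192 and 1379 normalised counts to 1768, 1803 and 1993, 1.45-fold (log2 fold change 0.53, SE 0.0571, limma adjusted p = 1.04e-16). DHDDS had 1087, 1087 and 1117 in the DMSO libraries and 1086, 1118 and 1093 in the NMS-873 libraries (log2 fold change 0.00, SE 0.0590, limma adjusted p = 0.978; with gene-based factors 0.11, limma adjusted p = 0.0414). NUS1 thus separated the treatments and DHDDS did not, and the difference between them was not tested.

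DOLK (chromosome 9, 131707809 to 131709898), the kinase that makes dolichol phosphate, had the largest fall of the 37. It went from 419, 404 and 460 normalised counts to 281, 260 and 236, and the groups were well apart. The fall was 1.65-fold (log2 fold change -0.72, SE 0.0810, limma adjusted p = 1.73e-15), and it was -0.62 with gene-based factors. DOLPP1, which recycles dolichol pyrophosphate, and SRD5A3, a polyprenol reductase, did not pass, at log2 fold changes of -0.10 and -0.05 (limma adjusted p = 0.225 and 0.740).

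Dolichol-phosphate mannose is made by DPM1, with DPM2 and DPM3 holding it in the membrane, and MPDU1 is needed for its use. DPM3 fell from 193, 156 and 184 normalised counts to 145, 155 and 130 (log2 fold change -0.30, SE 0.106, limma adjusted p = 0.0119). The highest NMS-873 library and the lowest DMSO library nearly met, and the call was lost with gene-based factors (-0.20, limma adjusted p = 0.123) and when either DMSO replicate 1 or NMS-873 replicate 3 was left out (limma adjusted p = 0.105 and 0.0762). DPM1, DPM2 and MPDU1 were at 0.09, -0.01 and -0.12 and did not pass (limma adjusted p = 0.175, 0.871 and 0.0911), though DPM1 did with gene-based factors (0.20, limma adjusted p = 5.63e-04) and without DMSO replicate 3 (0.15, limma adjusted p = 0.0313). MOGS, glucosidase I, which removes the outermost glucose after transfer, had 2358, 2238 and 2323 in the DMSO libraries and 2291, 2145 and 2343 in the NMS-873 libraries (log2 fold change -0.03, limma adjusted p = 0.672), with overlap.

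**Figure D4:**
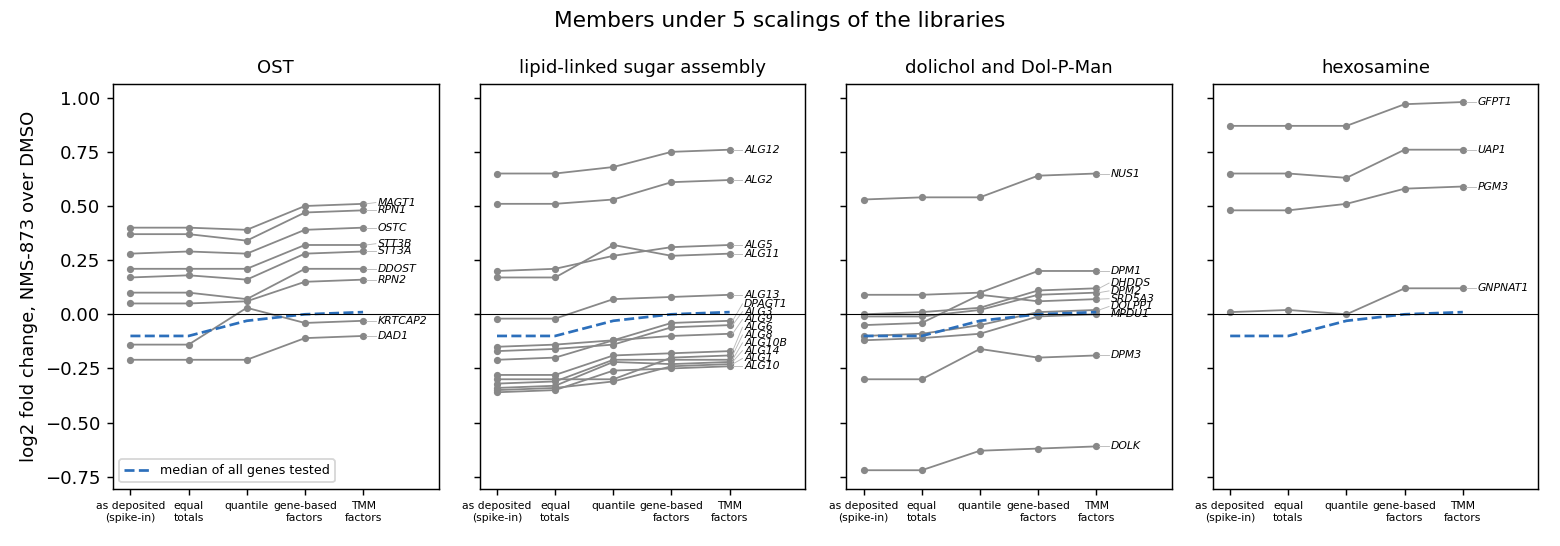
Log2 fold change of each member but MOGS (NMS-873 over DMSO, y axis) under 5 scalings of the libraries (x axis), in 4 groups, with the median of all genes tested as a dashed line. GFPT1 goes from 0.87 to 0.98 and DOLK from -0.72 to -0.61, while ALG13, SRD5A3 and DPM2, near the dashed line, cross 0.

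Genes around the pathway were mixed. Of 44 other genes of sugar supply, transport, trimming and deglycosylation, 43 were tested, 8 rose and 14 fell, close to the 14.9% and 33.0% of all genes, and the median was -0.07 against -0.10. Gene-based factors gave 15 higher and 10 lower, against 25.3% and 20.9%. GMPPB was not tested (1.32 ± 0.576 and 1.97 ± 1.96 normalised counts, SD, n = 3).

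In the supply of sugar nucleotides 2 of 11 tested genes rose and 3 fell, near the 14.9% and 33.0% of all genes. Beside UAP1L1, AMDHD2, which removes the acetyl group from N-acetylglucosamine 6-phosphate and so runs against the hexosamine pathway, fell from a mean of 293 normalised counts to 207 (log2 fold change -0.50, limma adjusted p = 4.57e-07). GMPPA, a regulator of GDP-mannose synthesis, rose (0.25, limma adjusted p = 1.28e-04).

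Of 5 genes that use UDP-GlcNAc or lead to sialic acid 3 rose and 2 fell, against 14.9% and 33.0% of all genes, and the median was 0.42 against -0.10. GNE, which turns UDP-GlcNAc into the precursor of sialic acid, rose from 670 ± 19.8 to 1330 ± 38.8 normalised counts (SD, n = 3), 0.99 on the log2 scale (limma adjusted p = 2.64e-39). This was a larger change than that of any of the 37 members. OGT, which puts single GlcNAc residues on nuclear and cytosolic proteins, rose by 0.64 (limma adjusted p = 8.00e-24), and NANS, the sialic acid synthase, by 0.42 (limma adjusted p = 6.19e-11). MGEA5, which encodes the hydrolase that removes what OGT adds, fell (-0.39, limma adjusted p = 4.21e-10; named after its value was seen).

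Transporters of nucleotide sugars were mixed too. SLC35B1, a nucleotide transporter of the ER membrane, rose from 1497 ± 92.1 to 2323 ± 37.8 normalised counts (log2 fold change 0.63, limma adjusted p = 3.28e-23). SLC35A2, the UDP-galactose transporter of the Golgi, rose by 0.22 (limma adjusted p = 0.00173), and SLC35A1, the CMP-sialic acid transporter, was lower (-0.46, limma adjusted p = 0.00296). Of 14 trimming and branching enzymes 1 rose and 6 fell, against 14.9% and 33.0% of all genes. Those that fell include MGAT4B and MGAT5, which add branches in the Golgi, and FUT8, which adds the core fucose, at -0.47, -0.20 and -0.33 (limma adjusted p = 2.06e-14, 9.47e-04 and 5.45e-08). In that list gene-based factors gave 5 higher and 4 lower, against 25.3% and 20.9%. The deglycosylation enzymes NGLY1 and ENGASE did not pass, at 0.02 and -0.07 (limma adjusted p = 0.785 and 0.515).

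**Figure D5:**
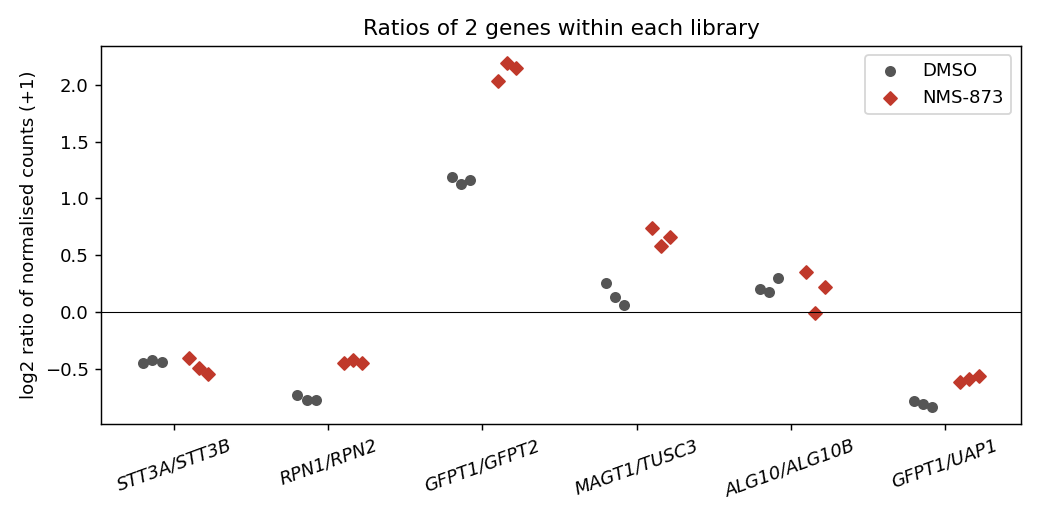
Log2 ratio of 2 genes within each library (y axis) for 6 pairs (x axis), 3 DMSO and 3 NMS-873 libraries each. GFPT1/GFPT2, MAGT1/TUSC3, RPN1/RPN2 and GFPT1/UAP1 separate by treatment, and STT3A/STT3B and ALG10/ALG10B overlap.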

How the data were processed

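Polyadenylated RNA of 6 U2OS libraries, 3 per treatment by their titles, was sequenced, per the labels' protocols with a stranded kit. The authors deposited 1 table: FPKM values per library (the unit is read from the values and not named in the header), the mean normalised count of each gene, a signal in units of scaled reads, and the log2 fold change and adjusted p-value of their own comparison. Per the submitters' processing notes, featureCounts 1.5.1 and DESeq2 1.16.1 were among the tools and hg19 was the build; the aligner and the strand setting are not given in the sources used here.

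When the tests were set, the library columns had been taken for normalised counts; these were instead rebuilt from FPKM and the deposited mean. After multiplication by size factors, 100% of values came within 0.001 of a whole read (largest distance 1.3e-09). The size factors match those computed by median of ratios from the spike-in RNA (92 rows, 0.359% to 0.386% of reads). Genes with a mean of at least 10 were tested with limma 3.58.1 (R 4.3.3) on log2(normalised count + 1), which understates changes of low genes, with treatment as the only term, a variance trend, two-sided tests and Benjamini-Hochberg adjustment over 14889 genes. The prior variance had 250.8 degrees of freedom, so each gene's spread was taken mostly from genes of similar level. The fit was tested on simulated data. A count model was not run, though the rebuilt whole reads would have allowed one. The rebuilt reads were fitted with voom instead.

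Alternatives were 4 other scalings, pseudocounts of 0.5 and 5, no count minimum and one of 50, no trend and voom. Others were a replicate block, leaving out each library and log2(FPKM + 0.1), which keeps the scaling of the main fit. Ratios of 2 genes were tested with an exact permutation test. Promoters came from RefSeq (GRCh38.p14) by symbol for 33 of 37 members; STT3B, RPN1, ALG10 and MOGS had no entry. Gene coordinates are those of the table (hg19). The members, lists and tests were chosen with earlier results of these data known. All members could be named; in each other list at most 3 genes were named, those of smallest adjusted p, besides the partners of each ratio, MGEA5 (added after its value was seen) and GMPPB (too low to test). The rule gives values in each library to the hexosamine enzymes, STT3A, STT3B and members that changed by at least 0.4; those of other members were added after their values were seen. Counts for the list of sugar transporters and 1 leukocyte marker are not reported here.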

Additional observations from a re-analysis of the deposited data

How the results depend on the processing

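Of the 37 members, 11 rose and 5 (DAD1, ALG1, ALG8, ALG10 and DOLK) fell in each of the 17 fits that kept the count minimum of 10. ALG5, ALG14 and the other lower calls were lost in at least 1 of them. The share of all genes that held in these 17 fits was not counted, so the 11 and 5 have no background beside them. Scaling mattered most. With gene-based factors 3760 genes rose and 3108 fell over all genes, with TMM factors 3920 and 2952, and 7 and 6 members fell, as did 7 with quantile normalisation. Members near 0 changed sign, none of them called: with gene-based factors ALG13 (0.08), SRD5A3 (0.06), DOLPP1 (0.01), DPM2 (0.09) and MOGS (0.07); with TMM factors ALG13 (0.09), SRD5A3 (0.07), DOLPP1 (0.02), DPM2 (0.10) and MOGS (0.08); and with quantile normalisation KRTCAP2 (0.03), ALG13 (0.07), SRD5A3 (0.09) and DPM2 (0.02). When 1 library was left out, sign changes were seen for KRTCAP2 (range -0.25 to 0.00), DHDDS (-0.01 to 0.02) and GNPNAT1 (-0.02 to 0.06). ALG13 (-0.07 to 0.04), DPM2 (-0.05 to 0.04), SRD5A3 (-0.15 to 0.01) and MOGS (-0.06 to 0.01) also changed sign. Such fits called 11 to 13 members higher and 9 to 11 lower. Over all genes tested they called 1870 to 2406 higher and 4005 to 4957 lower, so the background moved too. The median of the members minus that of all genes, 0.09, lay between 0.08 and 0.13 when 1 library was left out (0.13 without DMSO replicate 3) and between 0.06 (quantile normalisation) and 0.11 (no count minimum) under the other alternatives. The replicate numbers of the titles did not pair the libraries (correlations of deviations 0.0394, -0.0253 and 0.0425 for numbers 1 to 3), and not every library correlated best with its own number; with the replicate block 12 members rose and 12 fell, and 2352 and 5255 genes over all. Depth was similar in all libraries. Genes such as KRTCAP2, ALG11, DPM3 and SRD5A3, with as few as 90 to 144 reads in a library, carry more counting error, and the SE of KRTCAP2 was 0.127 against 0.0541 for GFPT1.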
